A study of Mus musculus with 8 samples.

Results

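The genes described here encode the enzymes and the carrier that make fatty acids from carbohydrate: Slc25a1, Acly, Acss2, Me1, Acaca, Acacb, Fasn, Scd1 and Scd2. They were chosen by name for their place in the pathway, with earlier results of these data known. They are 9 of the 28295 genes in the table. Expression was measured by poly(A) RNA sequencing of epididymal white adipose tissue from male mice. All animals carried Cul3 alleles flanked by loxP sites, ate a Western diet for 8 weeks and were fasted for 6 h. The KO-labelled group (4 libraries, KO1 to KO4) carried in addition AdipoQ-Cre, a Cre transgene under the adiponectin promoter, which fat cells use, and the WT group (4 libraries, WT1 to WT4) had Cul3-flox/flox alleles alone. Cullin 3, the product of Cul3, is a scaffold on which ubiquitin ligases assemble. The tissue was sequenced in bulk, so it also held the vessels, stroma and immune cells in which this Cre is not active.

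De novo fatty acid synthesis builds palmitate in the cytosol from acetyl-CoA. Citrate leaves the mitochondrion and is split into acetyl-CoA, the acetyl-CoA is carboxylated to malonyl-CoA, and fatty acid synthase joins the malonyl units with electrons from NADPH. The product is then elongated and desaturated. In white fat the pathway is known to be induced by feeding and insulin and is transcribed under the control of SREBP-1c, ChREBP and the liver X receptors.

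The libraries held 15.2 to 18.7 M reads in listed genes in the KO-labelled group and 17.7 to 19.7 M in WT (M, 1000000 reads, recovered from the deposited values). For the 7 members whose reads were recovered, the smallest count was 1055 reads, for Acss2 in a KO-labelled library, so counting error was small beside the spread between libraries. Cul3 itself, on chromosome 1 from 80264923 to 80340480, averaged 12.0 ± 1.28 FPKM in the KO-labelled libraries and 11.2 ± 1.13 FPKM in WT (SD, n = 4 each; FPKM, mapped fragments scaled to gene length in kilobases and to 1000000 fragments per library). Its fold change was 0.09 ± 0.10 on the log2 scale (adjusted p = 0.520), with a 95% interval of 0.908 to 1.25 for the KO-labelled over WT ratio. Under some other scalings it was called higher in the KO-labelled libraries, at 0.37 with equal FPKM sums (adjusted p = 0.0477), 0.35 with voom on the reads (adjusted p = 0.0298) and 0.82 with scaling to adipocyte markers (adjusted p = 0.00405). Those scalings moved the median of all genes to 0.24, 0.22 and 0.71, from -0.02 in the deposited scaling. Cul3 was not called with median-of-ratios scaling (0.13, adjusted p = 0.382) or quantile normalization (0.21, adjusted p = 0.211). The targeted gene was thus lower in the KO-labelled libraries under none of these scalings, the value covers the whole gene and not the deleted part alone, and every direction below rests on the labels. The labels do not tie libraries to separate animals, so the p-values measure the spread between these libraries.

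Promoter sequence is shown first for the members whose transcripts fell and whose RefSeq window (GRCm38.p6) ends exactly at the annotated start of the gene, since these are the stretches through which the fatty acid synthase, citrate carrier and citrate lyase genes are read. Each line gives the 250 bases before the start, 5′ to 3′ on the strand of the gene, with capitals marking CCAAT (the letters bound by NF-Y), CACGTG (an E-box) and GGGCGG (the letters bound by SP1) on either strand. The Fasn window is chr11:120824548-120824797, that of Slc25a1 is chr16:17928220-17928469 and that of Acly is chr11:100528001-100528250, all on the minus strand.
Fasn: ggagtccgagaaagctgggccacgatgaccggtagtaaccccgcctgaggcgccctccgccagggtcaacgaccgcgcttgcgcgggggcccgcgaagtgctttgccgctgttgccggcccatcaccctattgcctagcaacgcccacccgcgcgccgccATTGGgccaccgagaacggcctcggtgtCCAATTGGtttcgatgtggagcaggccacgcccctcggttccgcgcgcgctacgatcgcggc
Slc25a1: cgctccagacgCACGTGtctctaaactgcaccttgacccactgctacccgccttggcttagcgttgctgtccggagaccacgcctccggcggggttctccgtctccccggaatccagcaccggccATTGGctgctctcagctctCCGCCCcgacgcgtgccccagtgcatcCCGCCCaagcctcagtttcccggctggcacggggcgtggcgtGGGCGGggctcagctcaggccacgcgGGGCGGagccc
Acly: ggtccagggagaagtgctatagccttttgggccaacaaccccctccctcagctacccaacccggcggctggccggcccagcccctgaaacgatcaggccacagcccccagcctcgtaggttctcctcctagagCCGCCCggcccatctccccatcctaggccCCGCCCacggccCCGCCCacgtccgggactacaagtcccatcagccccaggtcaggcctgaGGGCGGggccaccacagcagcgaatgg
Fasn held CCAAT at -90, -62 and -59 from the start, the last pair overlapping on opposite strands, and held neither of the other motifs. Slc25a1 held all 3, with CACGTG at -239, CCAAT at -125 and GGGCGG at -106, -79, -37 and -11. Acly held GGGCGG at -117, -88, -76 and -27 and no CCAAT.

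Of the 9 members, 7 were matched in the promoter table. The windows of Acaca and Acacb end 65766 and 18983 bases inside the gene as GENCODE M21 annotates it. CCAAT was present in 4 of the 7 windows, that of Acacb among them, against 33.8% of all 32851 promoter windows of the same length. GGGCGG was also present in 4 of the 7, against 32.7% of all windows, and CACGTG in 1 of the 7, against 6.02%. TCACNCCAC, a letter string of the sterol response element, was in none of the 7 and in 1.05% of all windows. These matches describe letters in the windows and not occupied sites.

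Of the 9 members, 8 fell in the KO-labelled libraries, none rose, and Acacb did not pass the test. All 9 were tested, and among all 14400 genes tested 18.6% were called lower, 11.7% higher and 30.4% in either direction. Calls are limma results on log2(FPKM + 0.5) with a Benjamini-Hochberg p below 0.05, and fold changes below are on that scale, KO-labelled over WT, with their standard error. At an unadjusted p under 0.05 limma also called 0 members higher, while voom called 1, Acacb. Over all genes voom called 4449 higher, against 1689 for limma on the deposited scaling. The median fold change of the members was -1.66, against -0.02 over all genes tested. In the same 8 members every KO-labelled library lay below every WT library, as it did for 19.1% of all genes tested, while in 12.1% every KO-labelled library lay above.

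**Figure D1:**
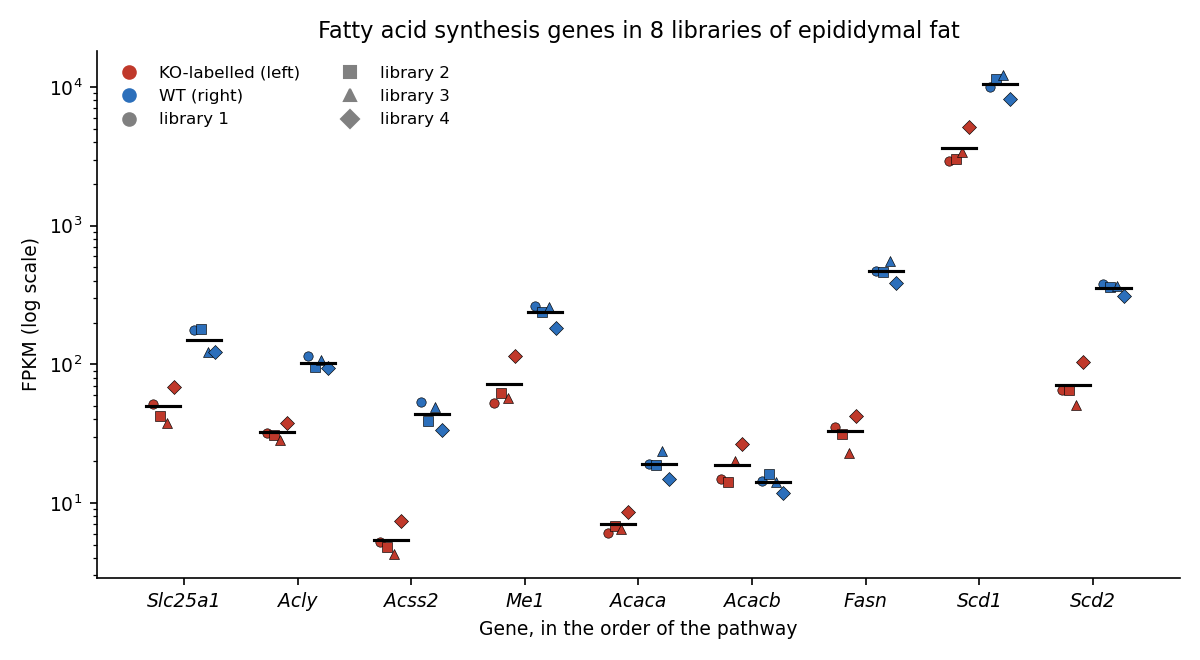
FPKM (log10 axis) of the 9 members in each of the 4 KO-labelled and 4 WT libraries, with the group mean as a bar, in pathway order from citrate export to desaturation. The groups are apart for 8 genes, with Fasn at 23.0 to 42.5 FPKM in the KO-labelled libraries and 389 to 558 FPKM in WT, and overlap for Acacb.

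Slc25a1 (ENSMUSG00000003528, chromosome 16, 17925223 to 17928219, minus strand) encodes the mitochondrial carrier that exports citrate to the cytosol. It stood at 51.4, 42.7, 38.0 and 68.1 FPKM in KO1 to KO4 and at 176, 179, 123 and 123 FPKM in WT1 to WT4. The highest KO-labelled library, KO4, was still well below the lowest WT library. The means were 50.04 ± 13.3 FPKM in the KO-labelled group and 150.2 ± 31.5 FPKM in WT (SD, n = 4 each), a log2 fold change of -1.59 ± 0.21 (adjusted p = 0.000963). WT1 and WT2 were the higher WT libraries, and without both the fold change was -1.32 (adjusted p = 0.0157).

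Acly and Acss2 supply cytosolic acetyl-CoA by separate routes. Acly (ENSMUSG00000020917, chromosome 11, 100476353 to 100528000, minus strand), ATP citrate lyase, splits the exported citrate. It stood at 31.9, 31.0, 28.4 and 37.6 FPKM in KO1 to KO4 and at 115, 95.6, 108 and 93.7 FPKM in WT1 to WT4. Both groups were tight, and the means of 32.2 ± 3.89 FPKM in the KO-labelled libraries and 103 ± 10.1 FPKM in WT gave a fold change of -1.66 ± 0.11 (adjusted p = 4.51e-05).

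Acss2 (ENSMUSG00000027605, chromosome 2, 155517948 to 155585724, plus strand), the cytosolic and nuclear acetyl-CoA synthetase, makes acetyl-CoA from acetate. It stood at 5.23, 4.82, 4.29 and 7.34 FPKM in KO1 to KO4, against 53.3, 39.1, 49.0 and 33.7 FPKM in WT1 to WT4. The groups did not come near each other, and after Fasn this was the largest fall among the members. Means of 5.42 ± 1.34 FPKM in the KO-labelled libraries and 43.8 ± 8.97 FPKM in WT gave a fold change of -2.91 ± 0.19 (adjusted p = 4.36e-05). Exons of Acss2os, Ggt7 and Gss overlap Acss2 on the opposite strand, and whether counting used strand is not known here. Gss, a glutathione synthesis gene, was at 3.68 ± 0.383 FPKM in the KO-labelled libraries and 3.27 ± 0.621 FPKM in WT. Ggt7, a glutamyl transferase family gene, was called lower, at 0.356 ± 0.0279 FPKM in the KO-labelled libraries and 0.707 ± 0.0776 FPKM in WT (-0.49, adjusted p = 0.0210), and Acss2os, which was not tested, was at 0 to 0.0656 FPKM in the KO-labelled libraries and 0 to 1.10 FPKM in WT. How far these genes share reads with Acss2 was not tested.

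Me1 (ENSMUSG00000032418, chromosome 9, 86581371 to 86695953, minus strand), the cytosolic malic enzyme, turns malate into pyruvate and yields NADPH for the synthase. It stood at 52.6, 62.3, 56.8 and 114 FPKM in KO1 to KO4 and at 263, 238, 259.7 and 184 FPKM in WT1 to WT4. KO4 stood apart from the other KO-labelled libraries and was still below every WT library. Means of 71.6 ± 28.9 FPKM in the KO-labelled libraries and 236 ± 36.5 FPKM in WT gave a fold change of -1.78 ± 0.24 (adjusted p = 0.00122). Of the stretches of 50 bases in its longest transcript, 26.5% also occur in the pseudogenes Gm7049 and Gm7329, and whether reads were split between them was not tested. Gm7049 itself averaged 1.34 ± 0.698 FPKM in the KO-labelled libraries and 0.271 ± 0.0631 FPKM in WT.

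The acetyl-CoA carboxylases Acaca and Acacb both make malonyl-CoA, and their transcripts behaved differently. Acaca (ENSMUSG00000020532, chromosome 11, 84129672 to 84401651, plus strand) encodes the cytosolic enzyme that feeds fatty acid synthase. It stood at 6.06, 6.85, 6.43 and 8.64 FPKM in KO1 to KO4 and at 19.2, 18.7, 23.5 and 14.9 FPKM in WT1 to WT4. The groups did not overlap, and means of 6.99 ± 1.14 FPKM in the KO-labelled libraries and 19.1 ± 3.53 FPKM in WT gave a fold change of -1.38 ± 0.15 (adjusted p = 0.000400). The pseudogene Gm5182 shares 52.6% of the 50-base stretches of the longest Acaca transcript. It was at 2.78 ± 0.673 FPKM in the KO-labelled libraries and 6.58 ± 1.19 FPKM in WT, so reads of one may have been counted in the other.

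Acacb (ENSMUSG00000042010, chromosome 5, 114146535 to 114250761, plus strand) encodes the carboxylase of the outer mitochondrial membrane, whose malonyl-CoA is known to restrain fatty acid entry into mitochondria. It stood at 14.8, 14.1, 20.2 and 26.5 FPKM in KO1 to KO4 and at 14.5, 16.3, 14.1 and 11.7 FPKM in WT1 to WT4. KO3 and KO4 were above every WT library, while KO1 and KO2 lay within the WT range. Means of 18.9 ± 5.78 FPKM in the KO-labelled libraries and 14.1 ± 1.87 FPKM in WT gave a fold change of 0.37 ± 0.20 (adjusted p = 0.190), and the 95% interval of -0.08 to 0.82 spans ratios from 0.944 to 1.77. The call depends on the scaling, since Acacb was called higher at 0.65 when every library was scaled to the same FPKM sum (adjusted p = 0.0281), at 0.63 when recovered reads were tested with voom (adjusted p = 0.0230) and at 1.10 when scaled to adipocyte markers (adjusted p = 0.000431). Those scalings moved the median of all genes to 0.24, 0.22 and 0.71. They called 4226, 4449 and 9816 genes higher, against 1689 in the deposited scaling. Acacb lay 0.41, 0.41 and 0.39 above these medians, against 0.39 in the deposited scaling. Among the alternatives the highest adjusted p was 0.376, without KO4.

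Fasn (ENSMUSG00000025153, chromosome 11, 120805846 to 120824547, minus strand) encodes fatty acid synthase, the multienzyme that assembles palmitate. It stood at 35.2, 31.3, 23.0 and 42.5 FPKM in KO1 to KO4 and at 469.7, 466, 558 and 389 FPKM in WT1 to WT4. The lowest WT library was many times above the highest KO-labelled library. Recovered reads were 6100 to 11526 per KO-labelled library and 104586 to 139916 per WT library. Means of 33.0 ± 8.13 FPKM in the KO-labelled libraries and 470.5 ± 69.1 FPKM in WT, 14.3-fold higher in WT, gave a fold change of -3.84 ± 0.19 (adjusted p = 1.22e-05).

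Scd1 and Scd2 are stearoyl-CoA desaturases, which place the first double bond in newly made saturated fatty acids. Scd1 (ENSMUSG00000037071, chromosome 19, 44394455 to 44407879, minus strand) was the most abundant member, at 2912, 3042, 3376 and 5153 FPKM in KO1 to KO4 and at 10012, 11464, 12269 and 8216 FPKM in WT1 to WT4. The groups did not overlap. Its means were 3621 ± 1040.1 FPKM in the KO-labelled libraries and 10490.4 ± 1781 FPKM in WT, with a fold change of -1.56 ± 0.22 (adjusted p = 0.00135). Under quantile normalization, which gives every library the same distribution of values, the change of Scd1 was -0.67 (adjusted p = 0.0227).

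Scd2 (ENSMUSG00000025203, chromosome 19, 44293674 to 44306864, plus strand), an isoform on the same chromosome as Scd1, stood at 65.6, 65.5, 50.5 and 103 FPKM in KO1 to KO4 and at 379, 359, 365 and 312 FPKM in WT1 to WT4. Again no KO-labelled library reached the WT range. Means of 71.2 ± 22.5 FPKM in the KO-labelled libraries and 354 ± 29.0 FPKM in WT gave a fold change of -2.35 ± 0.20 (adjusted p = 0.000121). The desaturase copies share little sequence at this read scale, with 4.66% of the 50-base stretches of Scd1 and 4.01% of those of Scd2 found in another gene.

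The falls were of unequal size, and the order of the members by level differed between the groups. By mean FPKM, which is per length, the KO-labelled libraries ran Scd1, Me1, Scd2, Slc25a1, Fasn, Acly, Acacb, Acaca and Acss2. The ranges of neighbours overlapped between Me1 and Scd2, Scd2 and Slc25a1, Slc25a1 and Fasn, Fasn and Acly, and Acaca and Acss2. In WT the order was Scd1, Fasn, Scd2, Me1, Slc25a1, Acly, Acss2, Acaca and Acacb, and only Acaca and Acacb overlapped. Fasn was thus in position 5 in the KO-labelled libraries and in position 2 in WT. Positions within a group depend on the length used, which for Acss2 was 10163 exon bases, against 2931 in its longest transcript. The 9 members together took 2.11% ± 0.568 of the summed FPKM of a KO-labelled library and 5.29% ± 0.766 of a WT library (SD, n = 4 each). Scd1 alone made up 91.7% to 93.7% of the members' FPKM in the KO-labelled libraries and 87.0% to 89.1% in WT. With Scd1 left out, the members summed to 228 to 408 FPKM in the KO-labelled libraries and 1161 to 1500 FPKM in WT.

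**Figure D2:**
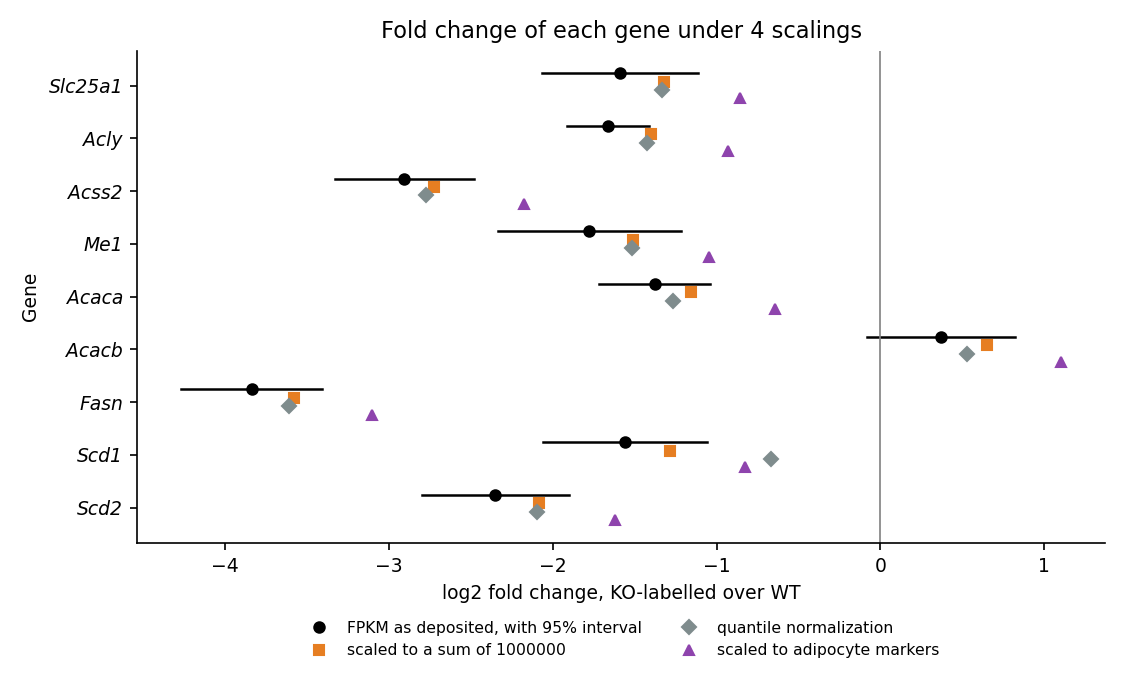
Log2 fold change (KO-labelled over WT) of each member, with its 95% interval for the deposited FPKM scaling and points for 3 other scalings; the line at 0 marks no difference. In the deposited scaling the falls run from -1.38 for Acaca to -3.84 for Fasn, and Acacb lies above 0 in all 4 scalings.

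Ratios of members within a library do not depend on scalings that apply the same factor to all genes of a library. Quantile normalization is not of that kind, and the ratios were not tested under it. They addressed whether paired enzymes kept their proportions in the deposited values. The ratio of Acaca to Acacb was 0.410, 0.486, 0.318 and 0.325 in KO1 to KO4 and 1.32, 1.15, 1.67 and 1.27 in WT1 to WT4. In FPKM, Acacb thus exceeded Acaca in all 4 KO-labelled libraries and Acaca exceeded Acacb in all 4 WT libraries. The difference between the groups was -1.82 on the log2 scale. FPKM here divides by all annotated exon bases, 17074 for Acaca and 9632 for Acacb, against longest transcripts of 9513 and 8788 bases. Which gene of a pair is the larger depends on the length used, while the difference between the groups does not. Acacb held 72.4% ± 4.06 of the FPKM of both carboxylases in the KO-labelled libraries and 42.8% ± 3.84 of it in WT. The ratio of Scd1 to Scd2 was 44.4 to 66.9 in the KO-labelled libraries and 26.3 to 33.6 in WT, a log2 difference of 0.80. The ratio of Acss2 to Acly was 0.151 to 0.195 in the KO-labelled libraries and 0.360 to 0.464 in WT, a log2 difference of -1.34. The groups did not overlap in any of the 3 ratios, and each had p = 0.0286 in an exact two-sided permutation test, the smallest that 4 against 4 allows (0.0286 after adjustment over the 3). Without WT1 and WT2 the differences were -1.94, 0.78 and -1.29, each with an exact p of 0.133, the smallest that design allows.

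**Figure D3:**
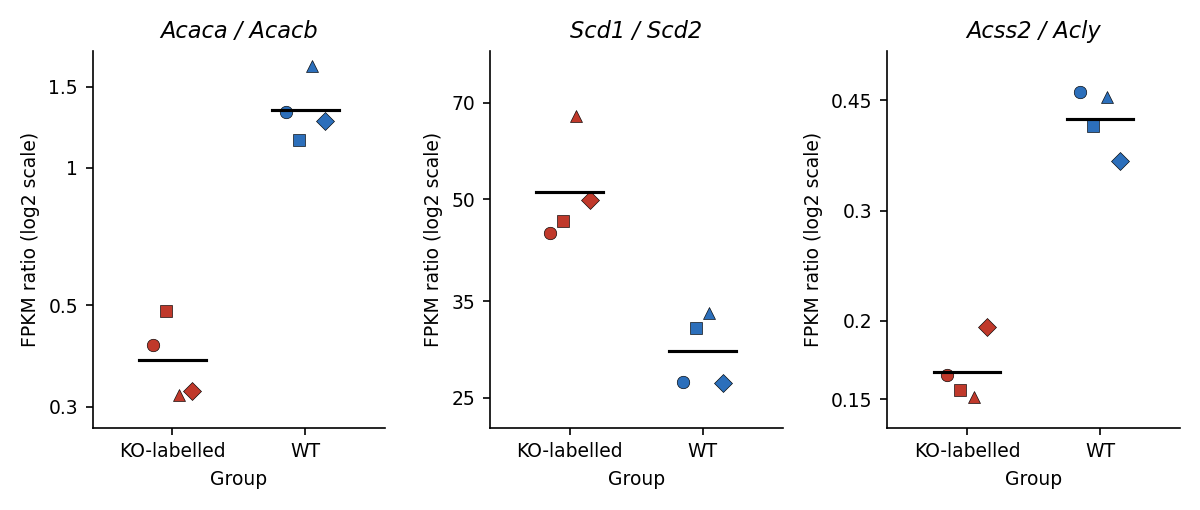
Ratio of FPKM within each library (log2 axes) for the 2 carboxylases, the 2 desaturases and the 2 sources of acetyl-CoA, with 4 KO-labelled libraries on the left and 4 WT libraries on the right of each panel and the mean of the log2 ratios as a bar. The Acaca to Acacb ratio lies below 1 in the KO-labelled libraries and above 1 in WT.

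KO4 was the highest KO-labelled library in 9 of 9 members, and WT4 was the lowest WT library in 9 of 9. The opposite edges were shared less: KO3 was the lowest KO-labelled library in 5 members, with KO1 or KO2 lowest in the others, and the highest WT library was WT1, WT2 or WT3 depending on the gene. The mean log2 level of the members was 5.26 to 5.95 in the KO-labelled libraries and 7.06 to 7.45 in WT. The mean level of the 10 adipocyte markers moved with that of the members. Of the 10 markers, 8 fell and none rose by limma (8 and 0 at an unadjusted p under 0.05), with 7 and 0 under voom and 4 and 1 without WT1 and WT2. Cfd (0.45, adjusted p = 0.492) and Aqp7 (-0.08, adjusted p = 0.713) were not called by limma. Cfd was at 664 to 1016 FPKM in the KO-labelled libraries and 282 to 1661 FPKM in WT. The summed level of the 10 markers was 2589 to 3427 FPKM in the KO-labelled libraries and 3979 to 6836 FPKM in WT, and no marker was at 0. Their mean log2 level was highest in KO4 among the KO-labelled libraries (range 7.45 to 7.82) and lowest in WT4 among the WT libraries (range 7.95 to 8.64). In bulk tissue, fewer adipocytes and less RNA of these markers per adipocyte cannot be told apart. The markers did not move alike, with fold changes from -1.82 for Cidec to 0.45 for Cfd. Whether scaling to them corrects for adipocyte content was not tested. When each library was scaled to these markers, the same 8 members were still called lower. Their fold changes were then -3.10 for Fasn, -2.17 for Acss2, -1.62 for Scd2, -1.04 for Me1, -0.93 for Acly, -0.86 for Slc25a1, -0.83 for Scd1 and -0.65 for Acaca. That scaling moved the median of all genes to 0.71, against 0.24 for equal FPKM sums and 0.22 for voom.

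**Figure D4:**
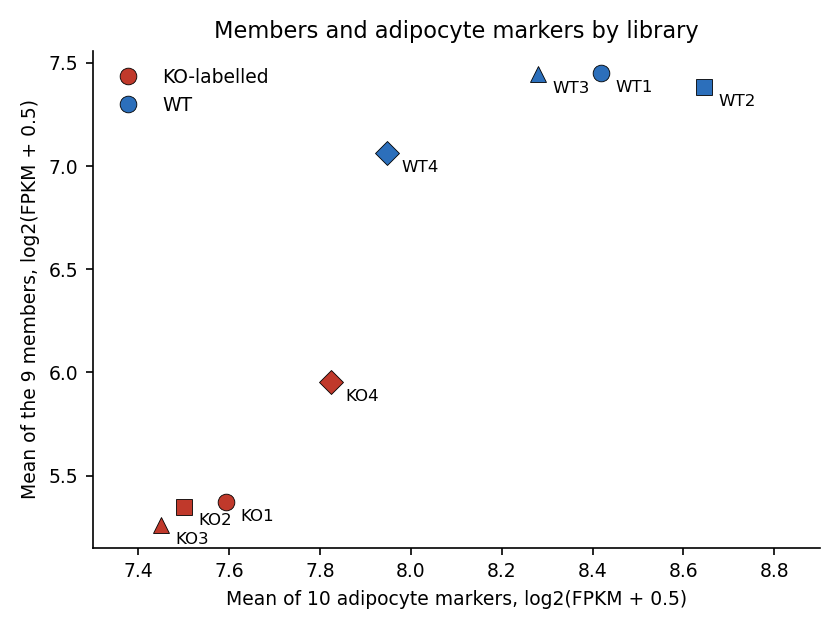
Mean log2(FPKM + 0.5) of the 9 members (vertical) against that of the 10 adipocyte markers (horizontal) in each of the 4 KO-labelled and 4 WT libraries. The KO-labelled libraries lie at 5.26 to 5.95 and the WT libraries at 7.06 to 7.45 on the vertical axis, and the groups are apart on both axes.

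Markers of other cell types also differed between the libraries, and their part in the members' changes was not tested. Counts of 0 in this paragraph are limma calls. Over all genes limma called 2683 lower and 1689 higher, voom 1253 and 4449, and limma without WT1 and WT2 1029 and 729. Of 10 macrophage markers 4 rose and 0 fell (6 and 0 at an unadjusted p under 0.05, 6 and 0 by voom), with sums of 472 to 1085 FPKM in the KO-labelled libraries and 350 to 1134 FPKM in WT, and KO4 was the lowest and WT4 the highest of its group. All 8 endothelial markers fell (159 to 185 FPKM in the KO-labelled libraries, 239 to 342 FPKM in WT), with 6 called lower by voom and 5 without WT1 and WT2. Of 8 stromal markers 2 fell and 0 rose (3 and 1 at an unadjusted p under 0.05), against 0 lower and 1 higher by voom (292 to 342 FPKM, against 352 to 742 FPKM in WT). Of 8 mesothelial markers 0 passed the test, 1 was higher at an unadjusted p under 0.05 and voom called that many higher (42.8 to 60.8 FPKM, against 19.7 to 59.6 FPKM in WT). Of 10 hepatocyte markers 4 fell (0 by voom), with sums of 51.7 to 179 FPKM in the KO-labelled libraries and 81.4 to 814 FPKM in WT, highest in WT1 and WT2, and none was at 0. Without WT1 and WT2 the same 8 members were called lower, the weakest at an adjusted p of 0.0253. Epididymal epithelium markers summed to 0.665 to 214 FPKM in the KO-labelled libraries, highest in KO1, and to 0.0471 to 65.9 FPKM in WT, with 6 of the 7 genes found in the table at 0 in some library and 0 of 4 tested called by limma, at an unadjusted p under 0.05 or by voom. Of 6 skeletal muscle markers 3 were tested and 2 fell (9.02 to 11.0 FPKM, against 15.95 to 47.0 FPKM in WT). Of 6 brown adipocyte markers 3 were tested, 1 fell and 1 rose (2.80 to 5.27 FPKM, against 3.18 to 8.28 FPKM in WT), with Ucp1, Dio2 and Elovl3 at 0 in some library. Of 8 lymphocyte markers only 1, Trac, was tested and it was not called (sums of 4.28 to 7.58 FPKM, against 4.82 to 10.8 FPKM in WT, with Trac the largest part). Below the filter on low values, every KO-labelled library lay above every WT library for Cd4 (0.711 to 1.04 FPKM, against 0.0518 to 0.141 FPKM in WT), Cd3e (0.327 to 0.614 FPKM, against 0.00997 to 0.182 FPKM in WT) and Cd8a (0.375 to 0.942 FPKM, against 0.0108 to 0.312 FPKM in WT).

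The pathway around the members was read from 7 lists, and their counts depended on scaling more than those of the members did. The counts that follow are for the deposited scaling, with those for equal FPKM sums after them. Of all 14400 genes tested, 18.6% were called lower and 11.7% higher in the deposited scaling. Under equal sums 1190 of the 14400 were called lower and 4226 higher. Voom called 1253 of 14395 lower and 4449 higher, and without WT1 and WT2 1029 of 14419 were called lower and 729 higher. Median fold changes were -0.76 for elongation and further desaturation, -0.58 for NADPH supply, -0.44 for pyruvate to citrate, -0.42 for isoenzymes and carriers, -0.26 for regulators, -0.22 for acyl-CoA synthetases and binding, and -0.16 for carboxylase control, against -0.02 over all genes tested. Scaled to adipocyte markers, which put the median of all genes at 0.71, the medians were -0.02, 0.15, 0.29, 0.32, 0.47, 0.51 and 0.57 in the same order, all below it. That scaling moves every gene by the same amount, so it leaves the place of each list relative to all genes as it was. Of 15 regulators of lipogenesis, 6 were called lower and none higher, against 2 lower and 2 higher under equal sums and 3 lower without WT1 and WT2. At an unadjusted p under 0.05 limma put 7 lower and 0 higher, and voom called 3 lower and 2 higher. Insig1, which retains the SREBP precursor in the endoplasmic reticulum and is itself a sterol-responsive gene, fell to 36.6 ± 11.4 FPKM in the KO-labelled libraries, against 153 ± 24.4 FPKM in WT (-2.08 ± 0.21, adjusted p = 0.000267). Thrsp, a lipogenic protein of fat and liver, fell to 37.7 ± 10.7 FPKM in the KO-labelled libraries, against 143 ± 39.9 FPKM in WT (-1.91 ± 0.24, adjusted p = 0.000764). Both kept that direction in every scaling run.

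The genes of the transcription factors had smaller fold changes than the 8 members that fell. Srebf1, which encodes SREBP-1, was at 47.6, 47.6, 51.3 and 65.7 FPKM in KO1 to KO4 and at 79.5, 66.1, 65.8 and 53.5 FPKM in WT1 to WT4. KO4 overlapped the WT range and WT4 the KO-labelled range, and the fold change of -0.32 ± 0.15 did not pass the test (adjusted p = 0.135). It was called lower without KO4 (-0.42, adjusted p = 0.0495) and with array weights (-0.44, adjusted p = 0.0301), and called higher when scaled to adipocyte markers (0.42, adjusted p = 0.0349). Mlxipl, which encodes ChREBP, was at 11.1 ± 1.40 FPKM in the KO-labelled libraries and 9.51 ± 1.58 FPKM in WT (0.22 ± 0.13, adjusted p = 0.224), and was called higher under equal sums (0.50), voom (0.48) and adipocyte marker scaling (0.95). These scalings moved the median of all genes to 0.24, 0.22 and 0.71. Nr1h3, the liver X receptor alpha, was called lower at -0.29 ± 0.10 (adjusted p = 0.0495). That call was lost in 13 of 21 alternatives, among them those without WT1, WT2, KO1, KO2 or KO3 (adjusted p of 0.0846 to 0.133). It was reversed in 1 more, as Nr1h3 was called higher when scaled to adipocyte markers (0.44, adjusted p = 0.0241). Mlx (-0.51 ± 0.07, adjusted p = 0.00137), the partner of ChREBP, Mid1ip1 (-0.50 ± 0.12, adjusted p = 0.0180), the Thrsp relative that promotes assembly of the carboxylases, and Insig2 (-0.38 ± 0.08, adjusted p = 0.00825) were called lower and lay above 0, at 0.22, 0.24 and 0.36, under that scaling. Mlx, Mid1ip1, Insig2, Nr1h3 and Srebf1 all lay below the median of all genes under it. With equal FPKM sums the calls of Insig2 (-0.11, adjusted p = 0.310), Mid1ip1 (-0.24, adjusted p = 0.104) and Mlx (-0.27, adjusted p = 0.0510) were lost, as were those of Insig2 (-0.14, adjusted p = 0.201) and Mid1ip1 (-0.26, adjusted p = 0.127) under voom and that of Insig2 under quantile normalization (-0.23, adjusted p = 0.0697). The call of Mid1ip1 was also lost without WT1 (-0.44, adjusted p = 0.0545), and those of Insig2 (-0.32, adjusted p = 0.0942) and Mid1ip1 (-0.35, adjusted p = 0.163) without WT1 and WT2.

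Downstream of the synthase, 8 of 11 tested elongation and desaturation genes were called lower and 1 higher, against 7 and 3 under equal sums. Elovl6, which lengthens palmitate to stearate, fell to 1.58 ± 0.148 FPKM in the KO-labelled libraries, against 10.7 ± 1.33 FPKM in WT (-2.43 ± 0.10, adjusted p = 5.5e-06). Tecr (-1.62 ± 0.14) and Hsd17b12 (-1.10 ± 0.10), further steps of the elongation cycle, also fell, the call of Hsd17b12 being lost under adipocyte marker scaling. The gene called higher was the desaturase Fads1.

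Upstream, 9 of the 17 genes between pyruvate and citrate were called lower and 3 higher, against 4 and 4 under equal sums and 1 and 3 without WT1 and WT2. Regulators of pyruvate dehydrogenase were called in both directions: Pdk4, Pdk2 and Pdp1 rose, while the kinase Pdk3 (-0.44, adjusted p = 0.0225) and the phosphatase Pdp2 (-0.57, adjusted p = 0.00616) fell. Pdk4, a kinase that inactivates the complex, was at 78.4 ± 20.2 FPKM in the KO-labelled libraries and 18.2 ± 2.89 FPKM in WT (2.05 ± 0.18, adjusted p = 0.000163). Pdk2, a kinase of the same family, was at 39.3 ± 4.38 FPKM in the KO-labelled libraries and 15.4 ± 2.80 FPKM in WT (1.34 ± 0.14, adjusted p = 0.000296). Pdp1, a phosphatase that reactivates it, rose by 0.79 ± 0.11. Of 13 tested genes on the NADPH supply list, 8 were called lower and 1, Idh2, higher. These counts were 6 and 3 under equal sums and 5 and 1 without WT1 and WT2. The list also holds genes whose enzymes do not themselves yield NADPH. Among those called lower, these were Taldo1, Rpia, Rpe, Mdh1 and Mdh2. Of the genes whose enzymes yield it, G6pdx, Mthfd1 and Aldh1l1 were called lower. Pgd (0.18, adjusted p = 0.408) and Idh1 (-0.14, adjusted p = 0.302) were not called by limma. G6pdx, the entry enzyme of the pentose phosphate pathway, was at 57.1 ± 7.88 FPKM in the KO-labelled libraries and 99.2 ± 7.18 FPKM in WT (-0.80 ± 0.12, adjusted p = 0.00159), a call lost under adipocyte marker scaling. Rpe, a later enzyme of that pathway, had a fold change of -1.25 ± 0.10, and Aldh1l1, a folate enzyme that yields NADPH, one of -1.34 ± 0.17.

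The tested genes on the list of acyl-CoA synthetases and binding proteins also included 2 thioesterase genes. These were Acot2 (0.50, adjusted p = 0.0661) and Acot13 (-0.29, adjusted p = 0.112). Of the 9 tested genes on this list, 3 were called lower and 0 higher by limma (6 and 1 at an unadjusted p under 0.05). Under equal sums and by voom, 3 were called lower and 3 higher. Without WT2 alone 1 was called higher. Dbi, the acyl-CoA binding protein, was at 146 ± 39.5 FPKM in the KO-labelled libraries and 526 ± 118 FPKM in WT (-1.86 ± 0.23). Acsl1, the main long-chain synthetase of fat, was at 47.6 ± 11.9 FPKM in the KO-labelled libraries and 115 ± 16.1 FPKM in WT (-1.28 ± 0.17), and Acsl3 had a fold change of -0.75 ± 0.16. Of 11 tested isoenzymes and related carriers, 5 were called lower and 0 higher by limma (7 and 0 at an unadjusted p under 0.05), against 3 and 1 under equal sums and by voom and 2 and 0 without WT1 and WT2. Slc25a10, the dicarboxylate carrier, was at 36.2 ± 5.97 FPKM in the KO-labelled libraries and 92.3 ± 18.9 FPKM in WT (-1.33 ± 0.16). Mecr, of mitochondrial fatty acid synthesis, had a fold change of -0.93 ± 0.15. Scd3 had a fold change of -1.05 ± 0.21, a call lost without WT1 and WT2. Of 15 genes that act on the carboxylases, 4 were called lower and 1 higher, against 2 and 4 under equal sums and 0 and 0 without WT1 and WT2. Without WT1, KO3 or KO4 alone 2 were called lower. Mlycd, which breaks down malonyl-CoA, had a fold change of -0.75 ± 0.16. Trib2, a pseudokinase, had one of -0.71 ± 0.16 with groups that overlapped. Prkaa2, a catalytic subunit of AMPK, had one of 0.53 ± 0.16 (adjusted p = 0.0365), a call lost in 9 of 21 alternatives, among them those without WT1, WT2, WT4, KO3 or KO4 (adjusted p of 0.0598 to 0.1001). The calls of Mlycd (adjusted p = 0.0798) and Trib2 (adjusted p = 0.120) were lost without WT1 and WT2. Calls for Mecr, Scd3, Acsl3, Mlycd and Trib2 were also lost under adipocyte marker scaling.

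**Figure D5:**
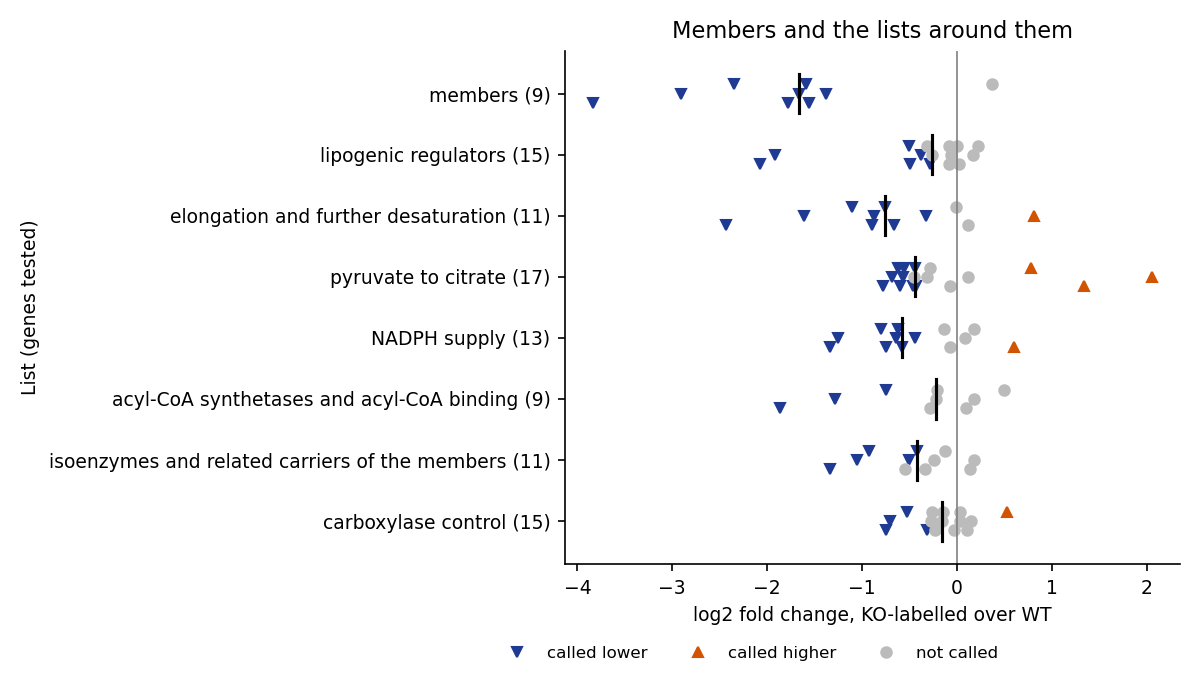
Log2 fold change (KO-labelled over WT) of the 9 members (top row) and of every tested gene in the 7 pathway lists, each point 1 gene, with downward triangles for genes called lower, upward triangles for genes called higher, grey circles for the rest and a bar at the median. The members' median is -1.66. Medians of the lists run from -0.76 for elongation and further desaturation to -0.16 for carboxylase control, and Pdk4, at 2.05, is the highest point of the pyruvate to citrate list.

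The genes whose profile over the 8 libraries lay nearest to the members' mean profile, of 11348 candidates, were Lss, Cyb5b, Hist1h2be, Bcar3 and Cidec, at root-mean-square distances of 0.104, 0.135, 0.136, 0.140 and 0.151 log2 units. Among the members themselves, Me1 (0.144) and Acly (0.158) were the closest to that mean, and Fasn (1.002) and Acacb (1.13) the farthest. Lss, lanosterol synthase of cholesterol synthesis, was at 1.89 ± 0.312 FPKM in the KO-labelled libraries and 7.67 ± 0.858 FPKM in WT. Cidec, a lipid droplet protein, is also 1 of the 10 adipocyte markers. Nearest to Fasn alone were Paqr9 (0.234), Rnase2a (0.235) and Tmem45b (0.329). Rnase2a was at 0 to 0.298 FPKM in the KO-labelled libraries and 6.96 to 8.85 FPKM in WT, so its distance depends on the pseudocount. Over the alternatives its fold change ran from -6.44 to -2.99, against -3.97 to -3.10 for Fasn. The pseudocount also weighs on the distance of Hist1h2be, which was at 0.399 to 1.24 FPKM in the KO-labelled libraries. Paqr9 was at 1.37, 1.40, 0.864 and 1.69 FPKM in KO1 to KO4 and at 27.5, 18.0, 21.1 and 17.8 FPKM in WT1 to WT4. These distances describe the 8 libraries, in which the group difference is the main component, and carry no test.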

How the data were processed

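The authors deposited 1 table of FPKM values for 28295 genes in 8 libraries. HISAT2 2.0.5, featureCounts and build mm10 are named per the submitters' processing notes. The sources used here do not give the annotation release or the strand setting. The members and lists were chosen with earlier results of these data known. Coordinates are GENCODE M21 (mm10), 1-based, and promoter sequences are from RefSeq (GRCm38.p6).

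Values were tested as log2(FPKM + 0.5), from the deposited table, with limma 3.58.1 (R 4.3.3; trend, robust, two-sided, no covariate) over the 14400 genes with a mean of at least 0.5 FPKM, with Benjamini-Hochberg adjustment. The log2 scale with this pseudocount understates changes of low genes. Reads were recovered from the steps of the FPKM values and M21 exon lengths, and 97.9% of values between 0.5 and 200 reads lay within 0.02 of a whole number. Reads made up 62.6% to 66.1% of the denominator of the KO-labelled libraries and 74.1% to 78.7% in WT. Scd1 and Scd2 did not give whole reads with the annotated length. Ratios were tested by exact permutation.

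Named genes were the members, Cul3, up to 3 called genes per list by adjusted p (up to 6 regulators, and always Srebf1, Mlxipl, Nr1h3 and Thrsp) and the nearest profiles. Gss, Ggt7, Acss2os, the pseudogenes, Fads1, Idh2, Pdk3, Pdp2 and single cell markers were named after their values were seen. The same holds for Taldo1, Rpia, Mdh1, Mdh2, Mthfd1, Pgd, Idh1, Acot2 and Acot13. Tables were handled in pandas 2.3.3 and numpy 2.4.6, permutations in scipy 1.17.1 and plots in matplotlib 3.10.9, under Python 3.11.15.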

Additional observations from a re-analysis of the deposited data

Results flagged for a closer look

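In 94 groups of 4 libraries, over the members, the other named genes and the 3 ratios, the highest or lowest library was set against the gap and range of its group. Chance alone marks about 5% of such groups. The 4 that stood apart were all KO4, above the other KO-labelled libraries. Me1 was at 114 FPKM in KO4, with the others at 52.6 to 62.3 FPKM. Acsl1 was at 65.3 FPKM in KO4, with the others at 39.5 to 43.6 FPKM. Hsd17b12 was at 40.4 FPKM in KO4, with the others at 32.1 to 33.2 FPKM. Trib2 was at 3.89 FPKM in KO4, with the others at 2.78 to 2.96 FPKM.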

How the results depend on the processing

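Under all 21 alternatives 8 members were called lower. The number called higher became 1, Acacb, under equal FPKM sums, voom and scaling to adipocyte markers, and stayed at 0 in the other 18. The replicate numbers did not pair the libraries: deviations of same-numbered libraries correlated at -0.06, -0.13, 0.17 and -0.32, and 1 of 8 libraries correlated best with its own number. With the replicate block, all genes called higher numbered 1113 and all genes called lower 1995, against 1689 and 2683 without it, and the ratios of Acaca to Acacb (-1.82), Scd1 to Scd2 (0.80) and Acss2 to Acly (-1.34) had an exact p of 0.125, the smallest 4 pairs allow. Without WT1 and WT2 they were -1.94, 0.78 and -1.29 (exact p = 0.133). With each library left out in turn they ranged over -1.94 to -1.71, 0.67 to 0.87 and -1.42 to -1.30 (exact permutation p = 0.0571, the smallest 3 against 4 allows), so those p-values say nothing about stability.

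Scaled to adipocyte markers, Mlx (0.22), Insig2 (0.36), Mid1ip1 (0.24), Nr1h3 (0.44), Srebf1 (0.42) and Trib2 (0.022) lay above 0, and below the median of all genes, which that scaling moved to 0.71 by shifting every gene alike. All genes called higher and lower were 4226 and 1190 under equal sums, 4449 and 1253 with voom, 9816 and 218 scaled to adipocyte markers, and 729 and 1029 without WT1 and WT2; without WT1 alone 1100 and without KO3 alone 1104 were called higher. Over all alternatives, counts called lower ran from 2 to 8 (regulators), 2 to 8 (elongation), 0 to 11 (pyruvate to citrate), 2 to 8 (NADPH supply), 2 to 6 (acyl-CoA), 1 to 6 (isoenzymes) and 0 to 5 (carboxylase control). Counts called higher ran from 0 to 10, 1 to 3, 3 to 7, 1 to 5, 0 to 6, 0 to 3 and 0 to 9 in the same order. The causes were not tested.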
